A study of Mus musculus with 4 samples.

Results

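The levels of 10 genes were followed in the liver of ob/ob mice: Nfe2l2, which encodes the transcription factor NRF2, 7 genes known as NRF2 targets (Nqo1, Hmox1, Gclc, Gclm, Txnrd1, Srxn1 and Slc7a11), and the metallothionein genes Mt1 and Mt2. The genes were chosen by symbol, and all 10 were found among the 24346 symbols of the expression tables, of which 16408 were above 0 in at least 1 library. RNA was sequenced from bulk liver, with 1 library per group in 4 groups. Ob/ob mice lack leptin and become obese, and male animals were fed for 4 weeks from 6 weeks of age. The groups received CD, a chow with sucrose at 10% and corn oil at 5%, CD+7KC, which is CD with 0.01% of 7-ketocholesterol (7KC, an oxidized cholesterol), WD, a high fat diet with sucrose at 34% and cocoa butter at 20%, or WD+7KC, which is WD with the same addition of 7KC. Cholesterol made up 1% of all 4 diets, so the CD and WD control groups carried it too, and every group lacked leptin. The sources used here do not give how many mice stand behind a library. The comparisons address how 7KC in the diet, under CD and under WD, and the diet itself, with and without 7KC, were accompanied by different levels of these genes.

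NRF2 is held in the cytoplasm by KEAP1, which directs it to degradation, and oxidants or electrophiles free it to enter the nucleus. There it pairs with small MAF proteins and binds antioxidant response elements (AREs) near genes for glutathione synthesis, the thioredoxin system, quinone reduction and heme breakdown, many of which the liver expresses at a high level. Metallothioneins are small cysteine-rich proteins that bind zinc and other metals, and their genes are turned on by the zinc-sensing factor MTF1 at metal response elements (MREs), by glucocorticoids and by inflammatory signals.

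Mt1 and Mt2 lie side by side on chromosome 8 of the GRCm38 genome, on the plus strand, at 94179082 to 94180327 and at 94172664 to 94173568. The RefSeq start sites used for the windows below, 94179089 for Mt1 and 94172618 for Mt2, differ from these gene starts. The 250 bases before the RefSeq start sites are shown because these genes had the widest ranges across the libraries among the members above 1 FPKM. The sequences are from RefSeq (GRCm38.p6), 5′ to 3′ on the plus strand, from chr8:94178839-94179088 for Mt1 and chr8:94172368-94172617 for Mt2. Capitals mark matches to the core of the metal response element, searched on both strands as TGCACNC or TGCGCNC, where N is any base.
Mt1: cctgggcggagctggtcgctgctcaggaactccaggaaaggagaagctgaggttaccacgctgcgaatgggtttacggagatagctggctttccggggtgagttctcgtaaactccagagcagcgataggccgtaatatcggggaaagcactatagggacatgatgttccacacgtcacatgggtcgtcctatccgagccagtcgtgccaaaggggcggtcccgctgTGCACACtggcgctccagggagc
Mt2: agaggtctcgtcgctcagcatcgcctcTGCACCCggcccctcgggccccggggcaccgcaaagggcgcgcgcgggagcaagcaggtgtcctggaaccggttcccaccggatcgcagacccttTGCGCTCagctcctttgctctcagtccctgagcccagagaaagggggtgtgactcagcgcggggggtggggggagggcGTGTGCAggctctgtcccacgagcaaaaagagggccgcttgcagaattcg
In windows of 300 bases, from 250 before the start to 50 after it, Mt1 had 3 such matches and Mt2 had 4. Of the other members with such a window, Gclm also had 3 and Srxn1 had 1, and the rest had none. Of 32841 windows of the same kind, 25.7% held at least 1 match, 1.97% at least 3 and 0.518% at least 4. The Mt1 matches after the start site lie at chr8:94179091-94179115, TGCACTCcgcccgaaaagTGCGCTC, again with the matches in capitals. A match is a description of the letters and was not tested for binding.

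The antioxidant response element was searched on both strands by its core TGACNNNGC, which 12.4% of all 32841 windows held. Of the 10 members, 8 had a promoter entry, and Hmox1 and Gclc had none. The core was found in the windows of Nfe2l2 (TGACTCCGC, at -240 to -232 from the start), Gclm (as GCACCGTCA on the opposite strand) and Mt2 (TGACTCAGC, at -79 to -71). It was also found in Srxn1 (GCTAGGTCA on the opposite strand, after the start) and at the second of the 3 start sites of Txnrd1 (GCTTTGTCA on the opposite strand). In Gclm it overlapped a match to the metal response element. The Nfe2l2 window, chr2:75704664-75704913 read on the minus strand, is shown with its core in capitals, since this gene encodes the regulator itself.
Nfe2l2: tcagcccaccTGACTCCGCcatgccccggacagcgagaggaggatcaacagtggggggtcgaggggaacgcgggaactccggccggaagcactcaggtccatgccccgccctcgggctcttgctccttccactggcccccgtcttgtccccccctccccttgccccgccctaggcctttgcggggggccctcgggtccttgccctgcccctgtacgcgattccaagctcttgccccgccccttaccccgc

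Levels are given as FPKM, fragments per kilobase of transcript scaled to the number of mapped fragments, which the authors computed with Cufflinks. The reads behind a value were estimated from the spacing of the lowest values, which gave 10980000 reads with CD, 11010000 with CD+7KC, 9440000 with WD and 12140000 with WD+7KC. Ranges after a value are 95% intervals for counting error between reads. They hold no variation between mice, and since each group had 1 library, no difference was checked against replicates or given a p-value. Differences are log2 fold changes of FPKM with a pseudocount of 0.1, which understates differences of genes with low values. The sum of all FPKM was lower in WD+7KC (602059) than in CD (715605), CD+7KC (696062) and WD (699534). Rescaling the libraries to equal sums therefore moved the median of all genes in WD+7KC relative to WD from 0.002 to 0.21 on the log2 scale, and in WD+7KC relative to CD+7KC from 0.003 to 0.205. Where a printed sign turned with this rescaling, the rescaled value is given with it.

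In CD+7KC relative to CD, both metallothioneins and Hmox1 were lower and Nqo1 was higher by 1.97-fold to 2.26-fold. Of the 10 genes 3 were higher and 7 lower, and the median log2 fold change was -0.16 beside -0.001 over 15684 genes. A log2 fold change below -1 was reached by 3 members (Hmox1, Mt1 and Mt2) and by 2.91% of all genes, or 0.862% of genes averaging at least 1 FPKM. None was above 1, since Nqo1 was at 0.97, and with equal sums Nqo1 was at 1.01 and Mt1 at -1.0. In either direction 6.75% of all genes and 2.04% of those averaging at least 1 FPKM passed 1. The counting interval lay above 0 for 2 members and below 0 for 7, beside 13.8% and 17.2% of genes of such a mean with a single mRNA. Here and in the comparisons below, these counts and shares are not measured alike. Intervals narrow as reads increase, and each member but Slc7a11 had a mean level above that of at least 81.8% of expressed genes. Slc7a11, with a mean of 0.059 FPKM, and Txnrd1, with 4 mRNAs, are not among the genes of the shares.

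In WD+7KC relative to WD, 8 of the 10 genes were higher and 2 lower, and the median was 0.35 beside 0.002 over 15753 genes, and 0.57 beside 0.21 with equal sums. Hmox1, at 0.73, was farthest from 0. No member passed 1 in either direction, as 9.0% of all genes and 3.49% of those averaging at least 1 FPKM did. The interval was above 0 for 6 members and below 0 for 1, beside 15.8% and 23.4% of genes. With equal sums these counts were 7 and 0, beside 39.1% and 6.4% of genes.

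**Figure D1:**
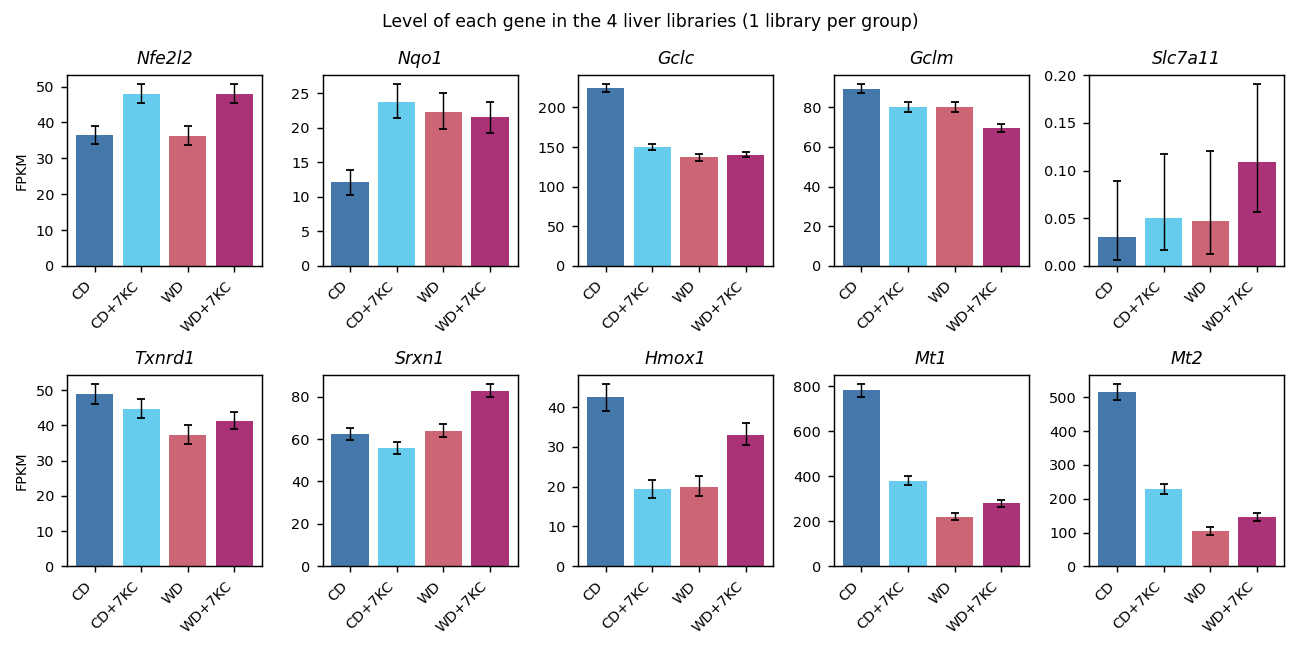
The bars give the level of each of the 10 genes in FPKM (vertical axes, each starting at 0) in the CD, CD+7KC, WD and WD+7KC libraries, with 95% counting intervals as error bars. CD is the highest library for Hmox1, Gclc, Gclm, Txnrd1, Mt1 and Mt2 and the lowest for Nqo1, and Nfe2l2 sits at 48.0 in both 7KC libraries and at 36.5 and 36.3 in CD and WD. Slc7a11 does not exceed 0.109 FPKM.

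Without 7KC, the diets also differed at these genes. In WD relative to CD, 3 members were higher and 7 lower, and the median was -0.28 beside 0.01 over 15597 genes. Again 3 members (Hmox1, Mt1 and Mt2) were below -1, beside 4.38% of all genes and 2.04% of those averaging at least 1 FPKM. In either direction 9.69% and 4.66% of genes passed 1. The interval was above 0 for 1 member and below 0 for 6, beside 22.1% and 25.1% of genes. CD is the reference of this comparison and of CD+7KC relative to CD, so the 2 comparisons share a library and a CD value far from the others enters both.

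In WD+7KC relative to CD+7KC, 4 members were higher and 6 lower, and the median was -0.10, which turned to 0.11 with equal sums, where the median of all genes was 0.205. No member passed 1, beside 12.6% of all genes and 7.92% of those averaging at least 1 FPKM. The interval lay above 0 for 2 members and below 0 for 4, beside 24.5% and 27.8% of genes. With equal sums these counts were 4 and 2, beside 42.8% and 14.1%. At a lower threshold of 1.5-fold, 4 members passed in CD+7KC relative to CD (17.5% of all genes) and 1 in WD+7KC relative to WD (21.0%). In WD relative to CD 5 passed (24.2%), and in WD+7KC relative to CD+7KC 2 passed (28.9%). These counts and shares are with deposited FPKM, and the shares are over all genes, those of low level included. With equal sums, Hmox1 (0.95), Slc7a11 (0.75), Mt2 (0.69), Nfe2l2 (0.62) and Srxn1 (0.59) passed 1.5-fold in WD+7KC relative to WD. That rescaling adds 0.22 to the log2 ratio of every gene there, and of these members only Hmox1 passed with deposited FPKM. The interval of Slc7a11 was wide, from -0.28 to 3.53 with equal sums. In WD+7KC relative to CD+7KC, Hmox1 (0.99), Srxn1 (0.78) and Slc7a11 (0.71) passed with equal sums. The medians of all genes were then 0.21 and 0.205, and the shares of all genes past 1.5-fold with equal sums are not given here. Each of the 4 libraries enters 2 of the 4 comparisons, so none of the comparisons stands apart from all the others.

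Nfe2l2 (chromosome 2, 75675513 to 75704641, minus strand) encodes NRF2 itself. Its level was 36.5 FPKM with CD (34.1 to 38.9), 48.0 with CD+7KC (45.3 to 50.8), 36.3 with WD (33.8 to 39.0) and 48.0 with WD+7KC (45.5 to 50.7). Both 7KC libraries were above both libraries without 7KC, and the share of all genes with such an order is not given here. It differed by 0.40 on the log2 scale in CD+7KC relative to CD and 0.40 in WD+7KC relative to WD, or 0.44 and 0.62 with equal sums. Between the diets it was -0.00 (-0.15 to 0.13) without 7KC, or 0.03 with equal sums, and 0.00 (-0.11 to 0.12) with 7KC, and the latter was 0.21 with equal sums, with an interval above 0.

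Markers of macrophages, the liver's resident Kupffer cells included, were also higher in each 7KC library than in the library of the same diet without 7KC. All 10 of 10 such markers were higher in each 7KC comparison, with medians of 0.90 and 1.01 beside -0.001 and 0.002 over all genes. Their summed level was 153 FPKM with CD, 244 with CD+7KC, 256 with WD and 513 with WD+7KC, with none at 0. The 5 endothelial markers summed to 49.4 with CD, 73.6 with CD+7KC, 39.5 with WD and 109 with WD+7KC. Of 8 other immune markers, 3 were higher and 5 lower in each 7KC comparison with deposited FPKM. Of 5 stellate cell markers, 1 was higher and 4 lower under CD, and 2 were higher and 3 lower under WD. Of 7 hepatocyte markers found in the tables, all 7 were lower in CD+7KC than in CD and 6 of 7 were lower in WD+7KC than in WD, or 4 of 7 with equal sums, with sums between 45300 and 56800 FPKM, so the tissue label held. The part of these markers in the levels of the 10 genes was not tested. In bulk liver, fewer cells of a type and less RNA per cell cannot be told apart.

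Gclc (chromosome 9, 77754535 to 77794485, plus strand) encodes the catalytic subunit of glutamate-cysteine ligase, the rate-limiting enzyme of glutathione synthesis. Its level was 225 FPKM with CD (220 to 230), 150 with CD+7KC (146 to 154), 137 with WD (133 to 141) and 140 with WD+7KC (137 to 144). CD stood above the other 3 libraries, which lay within 1.1-fold of each other. On the log2 scale the difference was -0.58 (-0.63 to -0.53) in CD+7KC relative to CD and -0.72 (-0.77 to -0.66) in WD relative to CD. It was 0.04 (-0.02 to 0.10) in WD+7KC relative to WD, or 0.25 with equal sums, and in WD+7KC relative to CD+7KC it was -0.10, or 0.11 with equal sums.

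Gclm (chromosome 3, 122245557 to 122270732, plus strand) encodes the modifier subunit of the same enzyme and had the narrowest range of the 10 genes, 1.28-fold from the lowest to the highest library. It was at 89.4 FPKM with CD, 80.1 with CD+7KC, 79.9 with WD and 69.7 with WD+7KC, so CD was highest here too and WD+7KC lowest. Its log2 fold change was -0.16 (-0.22 to -0.10) in CD+7KC relative to CD. It was -0.20 (-0.26 to -0.14) in WD+7KC relative to WD, a difference that became 0.02 with equal sums, with an interval that included 0. Between the diets it was -0.16 (-0.22 to -0.10) without 7KC and -0.20 (-0.26 to -0.14) with 7KC, the latter 0.01 with equal sums. The ratio of Gclc to Gclm in FPKM was 2.51 with CD, 1.87 with CD+7KC, 1.71 with WD and 2.01 with WD+7KC. Exons of Gclm overlap those of Gm17494 on the opposite strand and of Gm6061 on the same strand in the GENCODE vM21 annotation. Neither is a row of the tables, and reads of these genes cannot be told apart here.

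Slc7a11 (chromosome 3, 49892526 to 50443614, minus strand) encodes the cystine transporter xCT, which supplies cysteine for glutathione. It was at 0.0301 FPKM with CD, 0.05 with CD+7KC, 0.0467 with WD and 0.109 with WD+7KC, which correspond to about 3, 5, 4 and 12 reads. The interval in WD+7KC (0.0566 to 0.191) overlapped those of the other 3 libraries, of which CD was lowest (0.00624 to 0.0885). The log2 ratio without a pseudocount was 1.22 in WD+7KC relative to WD, with an interval from -0.50 to 3.31, so no difference was detectable at this depth. Of its 9149 windows of 75 bases, the read length, 85 also occur in transcripts of other genes, among them Tuba1a and Tuba1b.

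Nqo1 (chromosome 8, 107388225 to 107403206, minus strand) encodes a quinone reductase that is widely used as a readout of NRF2. Its level was 12.1 FPKM with CD (10.3 to 13.9), 23.8 with CD+7KC (21.4 to 26.4), 22.3 with WD (19.8 to 25.1) and 21.5 with WD+7KC (19.2 to 23.8). CD stood below the other 3 libraries, which lay within 1.11-fold of each other with overlapping intervals. The log2 fold change was 0.97 (0.72 to 1.25) in CD+7KC relative to CD and 0.88 (0.61 to 1.17) in WD relative to CD. It was -0.06 (-0.29 to 0.17) in WD+7KC relative to WD and -0.15 (-0.37 to 0.07) in WD+7KC relative to CD+7KC, and both were above 0 with equal sums, at 0.16 and 0.06.

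Txnrd1 (chromosome 10, 82833951 to 82897712, plus strand) encodes the cytosolic thioredoxin reductase. It was at 48.9 FPKM with CD, 44.6 with CD+7KC, 37.3 with WD and 41.4 with WD+7KC, a 1.31-fold range with CD highest. Its log2 fold change was -0.13 (-0.25 to -0.01) in CD+7KC relative to CD and 0.15 (0.01 to 0.29) in WD+7KC relative to WD. With equal sums they were -0.09, with an interval that included 0, and 0.36. In WD relative to CD it was -0.39 (-0.53 to -0.26), and in WD+7KC relative to CD+7KC it was -0.11 (-0.24 to 0.01), or 0.10 with equal sums. This gene has 4 RefSeq mRNAs of 2297 to 3622 bases, and its intervals were taken from the shortest, which gives the fewest reads.

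Srxn1 (chromosome 2, 152105516 to 152111376, plus strand) encodes sulfiredoxin, which restores overoxidized peroxiredoxins. It was at 62.3 FPKM with CD (59.5 to 65.3), 55.7 with CD+7KC (53.0 to 58.5), 63.9 with WD (60.8 to 67.2) and 82.8 with WD+7KC (79.7 to 86.0). WD+7KC was highest and CD+7KC was lowest. On the log2 scale Srxn1 differed by -0.16 (-0.26 to -0.06) in CD+7KC relative to CD and 0.37 (0.28 to 0.46) in WD+7KC relative to WD. It was 0.04 (-0.06 to 0.13) in WD relative to CD and 0.57 (0.48 to 0.66) in WD+7KC relative to CD+7KC.

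Hmox1 (chromosome 8, 75093621 to 75100589, plus strand) encodes heme oxygenase, which breaks heme down to biliverdin, iron and carbon monoxide and is abundant in macrophages that take up red cells. Its level was 42.4 FPKM with CD (39.1 to 45.8), 19.3 with CD+7KC (17.1 to 21.6), 19.9 with WD (17.6 to 22.6) and 33.1 with WD+7KC (30.4 to 36.0). CD and WD+7KC were high, while CD+7KC and WD were low with overlapping intervals. The log2 fold change was -1.13 (-1.34 to -0.94) in CD+7KC relative to CD and 0.73 (0.51 to 0.95) in WD+7KC relative to WD. Between the diets it was -1.08 (-1.30 to -0.87) without 7KC and 0.78 (0.57 to 0.99) with 7KC. Summed macrophage markers were lowest in CD, where Hmox1 was highest, and highest in WD+7KC, where Hmox1 was the second highest.

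Mt1 was at 781 FPKM with CD (753 to 810), 380 with CD+7KC (361 to 400), 221 with WD (205 to 238) and 279 with WD+7KC (263 to 295). The order was CD, CD+7KC, WD+7KC and WD. For Mt1 the log2 fold change was -1.04 (-1.13 to -0.95) in CD+7KC relative to CD, or -1.0 with equal sums, and 0.34 (0.20 to 0.47) in WD+7KC relative to WD. Between the diets it was -1.82 (-1.94 to -1.70) without 7KC and -0.45 (-0.56 to -0.34) with 7KC.

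Mt2 followed the same order over a wider range, 4.95-fold against 3.54-fold for Mt1. It was at 516 FPKM with CD (492 to 540), 228 with CD+7KC (213 to 245), 104 with WD (92.9 to 117) and 145 with WD+7KC (133 to 158). The log2 fold change was -1.17 (-1.30 to -1.05) in CD+7KC relative to CD and 0.48 (0.27 to 0.68) in WD+7KC relative to WD. It was -2.31 (-2.49 to -2.13) in WD relative to CD and -0.65 (-0.81 to -0.49) in WD+7KC relative to CD+7KC. The ratio of Mt1 to Mt2 was 1.52 with CD, 1.66 with CD+7KC, 2.12 with WD and 1.92 with WD+7KC. Together the genes made up 0.181% of all FPKM with CD, 0.0874% with CD+7KC, 0.0465% with WD and 0.0704% with WD+7KC.

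Mt1 and Mt2 mRNAs are short, at 549 and 511 bases, so their FPKM values depend on the length correction more than those of the other members, equally in each library. No window of 75 bases of Mt1 occurs in another transcript, but 141 of 437 windows of Mt2 are shared with Gm45774, an antisense gene that overlaps it and is no row of the tables. The libraries were made with a stranded kit, but the strand setting of the counting is not given in the sources used here, so reads of this pair cannot be told apart. Mt3, which lies near Mt2 on chromosome 8, was listed at 0 in all 4 libraries. Mt4, a further metallothionein, was listed at 0.495 FPKM in CD and at 0 in the other 3 libraries, so no fold is given.

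**Figure D2:**
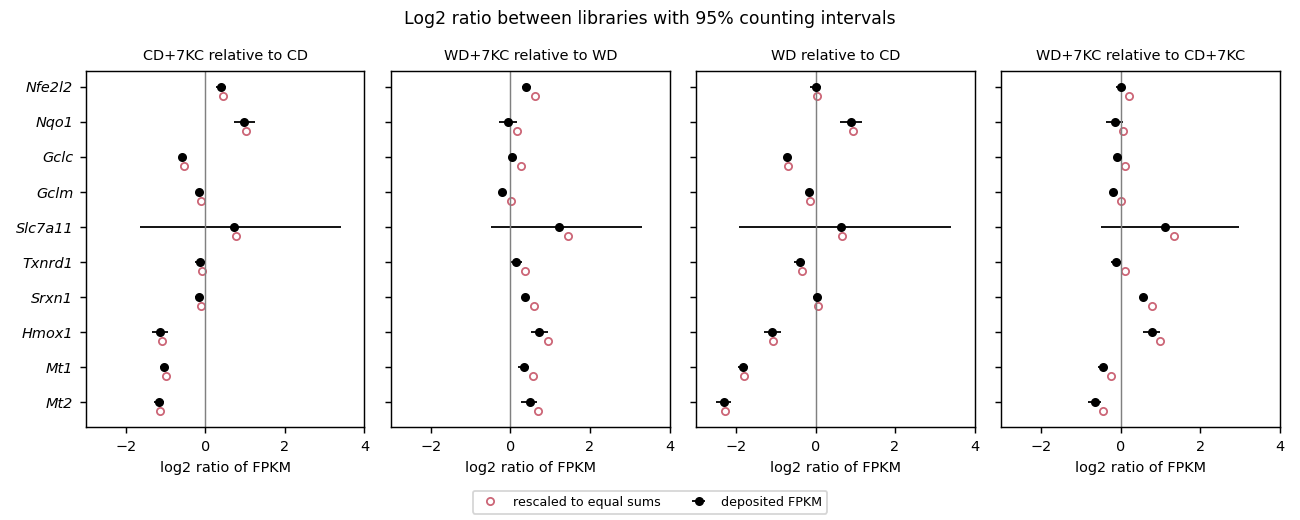
The panels give the log2 ratio of FPKM (horizontal axis) of each gene in the 4 comparisons, without a pseudocount. Black points with bars are deposited FPKM with 95% counting intervals, and open circles are values after rescaling to equal sums, which turned the sign for Nqo1 and Gclm in WD+7KC relative to WD, for Nfe2l2 in WD relative to CD, and for Nqo1, Gclc, Gclm and Txnrd1 in WD+7KC relative to CD+7KC.

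Setting the 7KC comparisons of the 2 diets beside each other, which share no library, Hmox1, Mt2 and Mt1 had the largest differences between them. The log2 fold change under WD minus that under CD was 1.86 for Hmox1 (1.58 to 2.16), 1.65 for Mt2 (1.42 to 1.89) and 1.38 for Mt1 (1.21 to 1.54), all lower with 7KC under CD and higher under WD. For Nqo1 it was -1.03 (-1.38 to -0.69), from 0.97 under CD and -0.06 under WD, or 0.16 under WD with equal sums. Of 10686 genes averaging at least 1 FPKM, 4.71% had a difference past 1 in either direction, and 1.0% were at least as far from 0 as Hmox1, 1.29% as Mt2, 2.14% as Mt1 and 4.46% as Nqo1. Smaller differences were found for Gclc (0.62), Srxn1 (0.54) and Txnrd1 (0.28), as far from 0 as 13.9%, 18.1% and 44.3% of genes reached. With equal sums the difference of Nqo1 was -0.86, no longer past 1, and 8.94% of genes were at least as far from 0, beside 0.908% for Hmox1, 1.17% for Mt2, 1.84% for Mt1, 10.4% for Gclc, 12.7% for Srxn1 and 27.4% for Txnrd1. With equal sums 6.24% of genes had a difference past 1. Nfe2l2 (0.01, -0.17 to 0.18) and Gclm (-0.04, -0.12 to 0.04) had intervals that included 0, and so had Slc7a11, while with equal sums the differences were 0.18 for Nfe2l2 and 0.14 for Gclm. Signs were opposite under the 2 diets for 7 of the 9 members above 1 FPKM and for 46.3% of all such genes. With equal sums the count was again 7 of 9, with Gclm in and Nqo1 out, beside 44.7% of genes. With 1 library per group, a difference between the diets in the 7KC comparison cannot be told apart from the variation of single libraries.

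**Figure D3:**
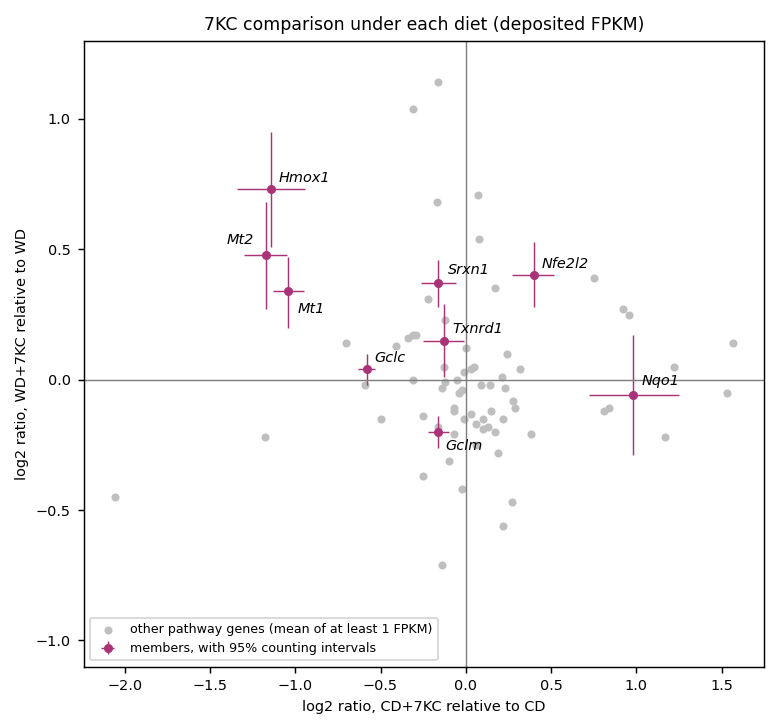
Each point is a gene, with its log2 ratio in CD+7KC relative to CD on the horizontal axis and in WD+7KC relative to WD on the vertical axis, both from deposited FPKM. Members carry 95% counting intervals and have no pseudocount, grey points are 68 other pathway genes with the pseudocount of 0.1, and Slc7a11 is not drawn because of its wide interval. Hmox1, Mt1 and Mt2 lie at the upper left, Nfe2l2 is at 0.40 on both axes, and Nqo1 is to the right near 0 on the vertical axis (-0.06, or 0.16 with equal sums).

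The CD library stood apart at several members. Mt1 in CD was 2.06-fold and Mt2 2.26-fold above the next highest library, and Nqo1 in CD was at 0.562 of the next lowest. Among the 10686 genes averaging at least 1 FPKM, 67 (0.627%) were above all other libraries by at least 1.5-fold in CD and 250 (2.34%) were below them, which for WD+7KC were 471 and 175. No member stood apart in this way in CD+7KC, WD or WD+7KC. For Mt1, Mt2 and Nqo1, the comparisons with CD as reference rest on this 1 library.

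Of 74 genes in 9 lists of related pathways, 68 averaged at least 1 FPKM. Past a log2 fold change of 1 in either direction were 6 of the 68 in CD+7KC relative to CD, 2 in WD+7KC relative to WD, 8 in WD relative to CD and 7 in WD+7KC relative to CD+7KC, beside the shares of genes of such a mean given above. The genes named next are the extremes of each list in the 7KC comparisons and those past 1.

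The glutathione list held the most genes past 1 in CD+7KC relative to CD. Its median over 10 genes was 0.87 there, with 7 higher and 3 lower, or 8 and 2 with equal sums, beside -0.005 over all genes of a mean of at least 1 FPKM. The glutathione S-transferases Gstm3 (436 FPKM in CD and 1260 in CD+7KC, 1.53), Gsta1 (41.2 and 96.4, 1.22) and Gstm1 (2800 and 6280, 1.17) were above 1, and Gss, glutathione synthetase, was lowest at -0.07. CD was the lowest library for 6 of the 10 genes, and Gstm3 in CD was below all other libraries by at least 1.5-fold. In WD and WD+7KC the levels were 961 and 926 FPKM for Gstm3, 51.8 and 53.6 for Gsta1 and 4880 and 4190 for Gstm1. Close paralogs such as these can share reads, so their values are uncertain. In WD+7KC relative to WD the median was -0.08, between Gstm2 at 0.27 and Mgst1 at -0.42, or 0.13 with equal sums. Gstm3 was at 1.14 in WD relative to CD, and Gsta2 was at -1.47 in WD+7KC relative to CD+7KC.

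Other genes known as NRF2 targets in detoxification and export, 12 in number, had medians of 0.14 and 0.08 in the 7KC comparisons under CD and WD. Cbr3, a carbonyl reductase, was at 10.8 FPKM with CD, 32.1 with CD+7KC, 26.5 with WD and 29.2 with WD+7KC, so that, as for Nqo1, CD was lowest and the others lay close together. Its log2 fold change was 1.57 in CD+7KC relative to CD and 1.29 in WD relative to CD, where Cbr1 was at 1.18. Osgin1, an oxidative stress induced growth inhibitor, was at 42.4 FPKM with CD, 34.1 with CD+7KC, 18.3 with WD and 37.9 with WD+7KC, the lowest of the list in CD+7KC relative to CD (-0.31) and the highest in WD+7KC relative to WD (1.04), and -1.21 in WD relative to CD. Ugt1a6a, a glucuronosyltransferase, was lowest in WD+7KC relative to WD at -0.37.

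Of 8 partners and regulators of NRF2, 7 were lower in CD+7KC than in CD, or 6 with equal sums, between Mafg at 0.13 and Maff at -0.70, both small MAF proteins. The list median was -0.23 there, beside -0.005 over all genes averaging at least 1 FPKM. In WD+7KC relative to WD 4 were higher and 4 lower, or 8 higher with equal sums. With equal sums the list median was 0.2, beside 0.183 over all such genes. The extremes under WD were Bach1, a repressor of Hmox1, at 0.17 and Cul3, the ubiquitin ligase scaffold that acts with KEAP1, at -0.21 (0.01 with equal sums). Mafg was at -1.12 in WD+7KC relative to CD+7KC, or -0.91 with equal sums. Keap1 was at 16.4 FPKM with CD, 14.9 with CD+7KC, 18.1 with WD and 17.8 with WD+7KC.

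In the thioredoxin and NADPH lists, 1 gene passed 1, G6pdx, the entry enzyme of the pentose phosphate pathway. It was at 1.96 FPKM with CD, 2.06 with CD+7KC, 3.02 with WD and 5.0 with WD+7KC, at 0.71 in WD+7KC relative to WD and 1.24 in WD+7KC relative to CD+7KC. Idh1 was lowest of the NADPH list in both 7KC comparisons (-0.10 and -0.31), and Taldo1 was highest under CD (0.14). Of the 5 thioredoxin and peroxiredoxin genes, Txn1 (0.15) and Txnip (-0.29) were the extremes under CD, and Txnip (0.17) and Prdx6 (-0.19) those under WD. With equal sums Prdx6 was at 0.03 and all 5 were higher, and the list median under WD went from -0.15 to 0.07. The median of all genes averaging at least 1 FPKM was then 0.183.

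Around heme and iron, no gene of 8 passed 1. The other heme oxygenase, Hmox2, lay between 27.5 and 28.0 FPKM in all 4 libraries. The extremes were Blvra (0.28), a biliverdin reductase, and Slc40a1 (-0.34), the iron exporter ferroportin, under CD, and Slc40a1 (0.16) and Blvrb (-0.47), another biliverdin reductase, under WD.

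In the zinc list, the zinc sensor Mtf1 was at 2.2 FPKM with CD, 1.99 with CD+7KC, 2.31 with WD and 2.39 with WD+7KC. Slc39a14, a zinc importer, was at 34.5 FPKM with CD, 22.9 with CD+7KC, 27.9 with WD and 27.4 with WD+7KC, with -0.59 in CD+7KC relative to CD, the lowest of the list. The exporter Slc30a1 was at 10.3 FPKM with CD, 7.24 with CD+7KC, 7.19 with WD and 6.48 with WD+7KC. It was lowest of the list in WD+7KC relative to WD (-0.15). With equal sums it was at 0.06 there, and all 5 genes of the list averaging at least 1 FPKM were higher. Their median was then 0.1, beside 0.183 over all genes of such a mean. Slc39a4 was highest under CD (0.29) and Mtf1 under WD (0.05). Slc30a10 was at -1.02 in WD relative to CD and -1.07 in WD+7KC relative to CD+7KC, or -0.99 and -0.88 with equal sums.

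Of 7 glucocorticoid-responsive genes, Zbtb16 was at -0.16 under CD and 1.14 under WD, the lowest and the highest of the list. Per1 was highest under CD (0.38). Tsc22d3 was lowest under WD (-0.56) and at -1.11 in WD+7KC relative to CD+7KC, or -0.91 with equal sums. Fkbp5, a widely used readout of the glucocorticoid receptor, was at 13.4 FPKM with CD, 12.3 with CD+7KC, 15.8 with WD and 18.5 with WD+7KC. A part of glucocorticoids in the levels of Mt1 and Mt2 was not tested.

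Targets of ATF4, the amino acid stress factor that also acts on Slc7a11, had medians of -0.17 and -0.22 in the 7KC comparisons. Chac1, which degrades glutathione, was at 8.91 FPKM with CD, 2.05 with CD+7KC, 3.48 with WD and 2.53 with WD+7KC, and its log2 fold change was -2.06 in CD+7KC relative to CD and -1.33 in WD relative to CD. Psat1, of serine synthesis, was at 0.646 FPKM with CD, 0.23 with CD+7KC, 2.25 with WD and 1.92 with WD+7KC. Its mean passed 1 FPKM only through the WD libraries, and its low values make its fold changes uncertain. They were -1.18 in CD+7KC relative to CD, 1.66 in WD relative to CD and 2.61 in WD+7KC relative to CD+7KC. Cth, which makes cysteine, was highest under CD at 0.19 and was at -1.16 and -1.64 in the diet comparisons without and with 7KC. Sesn2 (0.68) and Trib3 (-0.71) were the extremes under WD.

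**Figure D4:**
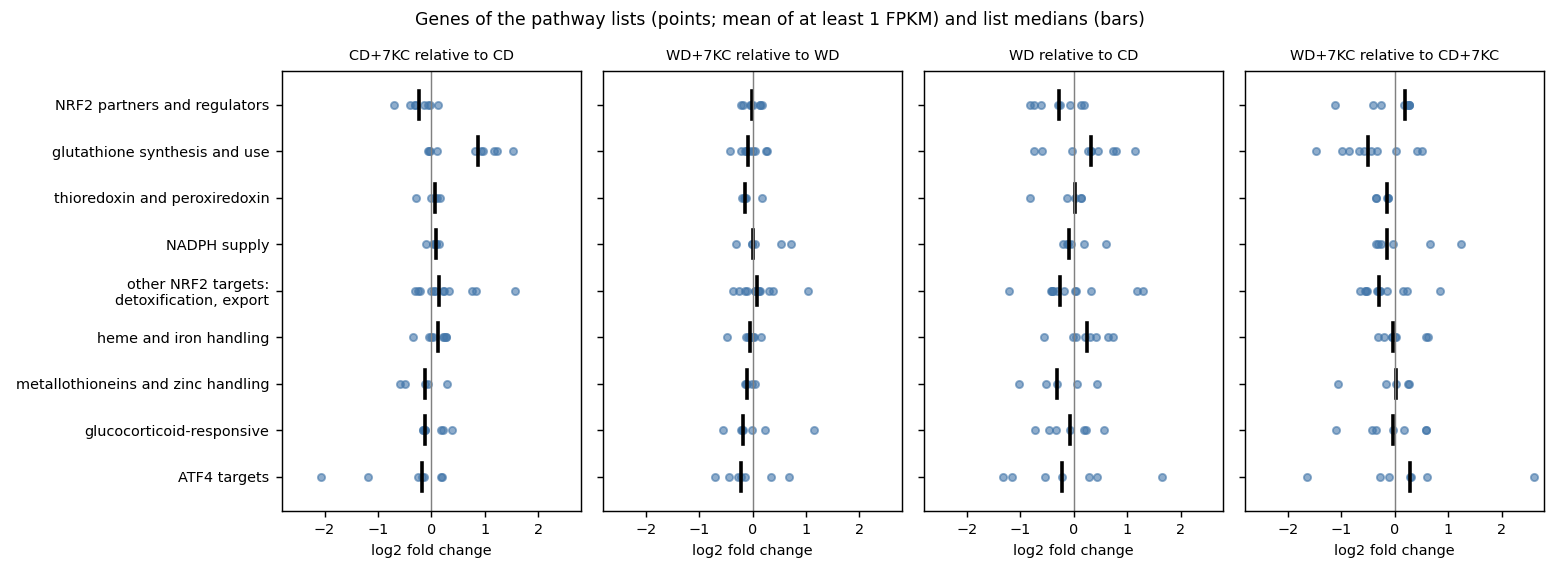
Points are the log2 fold changes (horizontal axis) of genes in the 9 lists in each of the 4 comparisons, and bars are list medians, all over genes averaging at least 1 FPKM. The glutathione list has its median at 0.87 in CD+7KC relative to CD and -0.08 in WD+7KC relative to WD. It is at 0.33 in WD relative to CD and -0.51 in WD+7KC relative to CD+7KC. The medians of the other lists lie between -0.31 and 0.29. With equal sums, 6 of 9 list medians in WD+7KC relative to WD and 4 of 9 in WD+7KC relative to CD+7KC turned from below to above 0. The medians of all genes averaging at least 1 FPKM were then 0.183 and 0.182.

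The genes whose pattern was nearest to that of a member were found by the distance between log2 levels centred on their mean over the 4 libraries, among genes averaging at least 1 FPKM. With 4 libraries, closeness describes these libraries only. Thbs1 was nearest to Mt1, at a distance of 0.07, at 2.45 FPKM with CD, 1.15 with CD+7KC, 0.659 with WD and 0.849 with WD+7KC, followed by Mt2 (0.37), Cxcl1 (0.43), Ccl7 (0.45) and Gpx8 (0.50). Near Hmox1 were 1700007L15Rik (0.15), Esm1 (0.18), Ccl2 (0.18, at 14.5, 7.4, 6.52 and 11.0 FPKM in CD, CD+7KC, WD and WD+7KC), Tuba1a (0.23) and Eps8 (0.31). Near Nqo1 were Mblac1 (0.09), Rilpl1 (0.13), Ccdc181 (0.14), Zc3h12d (0.14) and Pced1b (0.14).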

How the data were processed

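Liver RNA from the 4 groups was sequenced in 75-base single-end mode, with 1 library per group. The authors mapped reads to mm10 with TopHat2 2.0.13, Bowtie2 2.2.3 and SAMtools 0.1.19 and deposited FPKM values per gene symbol from Cufflinks 2.2.1. Its annotation and strand setting are not given in the sources used here. Log2 fold changes used a pseudocount of 0.1 and genes above 0 in at least 1 of the 2 libraries compared, and no test across samples was run, since each group had 1 library. Read numbers were estimated from the steps of low values with the transcript length minus 200 bases, and between 68.0% and 68.7% of low values lay within 0.1 of a whole read, so intervals are approximate. Exact 95% intervals (Poisson for a level, Clopper-Pearson for a ratio) cover counting error only, and the difference between diets combines them approximately. The code was tested on simulated data. The members and lists were chosen with earlier results of these data known. The named genes were the extremes of each list in the 7KC comparisons and those past 1, with a mean of at least 1 FPKM, the members, and the 5 genes nearest to Mt1, Nqo1 and Hmox1. Keap1, Hmox2 and Fkbp5 were added after their values were seen. The intervals, the share of genes standing apart in 1 library and the comparison of differences between diets over all genes were added after seeing the data. Alternatives were pseudocounts of 1 and 0.01, equal sums, upper quartile and median-ratio scaling, a filter of 1 FPKM and a threshold of 1.5-fold. Gene positions are from GENCODE vM21, and promoters from RefSeq. Python 3.11.15, numpy 2.4.6, pandas 2.3.3, scipy 1.17.1 and matplotlib 3.10.9 were used.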

Additional observations from a re-analysis of the deposited data

Results flagged for a closer look

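In 7 genes the 7KC comparison had opposite signs under the 2 diets, given as log2 fold changes in CD+7KC relative to CD and then in WD+7KC relative to WD. They were -1.13 and 0.73 for Hmox1, -1.17 and 0.48 for Mt2, -1.04 and 0.34 for Mt1, and -0.58 and 0.04 for Gclc. For Srxn1 they were -0.16 and 0.37, for Txnrd1 -0.13 and 0.15, and for Nqo1 0.97 and -0.06, which was 0.16 with equal sums. The counting intervals under WD of Gclc (-0.02 to 0.10) and Nqo1 (-0.29 to 0.17) included 0, so their signs there are open. With equal sums Gclm had opposite signs (-0.12 and 0.02) and Nqo1 had not. The differences were not tested between samples, since each group had 1 library, and 46.3% of all genes averaging at least 1 FPKM also had opposite signs.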

How the results depend on the processing

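No sign of a median over the 10 genes turned except in WD+7KC relative to CD+7KC, where -0.10 became 0.11 with equal sums. In WD+7KC relative to WD the median of 0.35 was 0.24 with a pseudocount of 1, 0.57 with equal sums and 0.46 with upper quartile scaling, and in WD relative to CD the median of -0.28 was -0.39 with the filter of 1 FPKM, which left out Slc7a11. The count past 1 in WD+7KC relative to WD went from 0 to 1 with a pseudocount of 0.01 (Slc7a11). It went to 1 at the threshold of 1.5-fold with deposited FPKM (Hmox1). At that threshold the count was 5 rather than 3 in WD relative to CD and 2 rather than 0 in WD+7KC relative to CD+7KC. Upper quartile scaling gave 4 rather than 3 members in CD+7KC relative to CD, with Nqo1 added, and equal sums gave 3 with Nqo1 in and Mt1 out. Of 236 values of single genes, 17 left the 95% counting interval of the reported value, 14 with equal sums and 3 with upper quartile scaling. This measure is loose where few reads lie behind a value, so Slc7a11 in WD+7KC relative to WD, at 0.51, 1.07 and 0.08 with pseudocounts of 0.1, 0.01 and 1, stayed inside. Equal sums turned the sign of 7 of 40 gene values. No fit with a replicate block was run, since the groups share no replicate numbers, and no fit with diet as a block was run. With 1 library per group none could be left out. Depth limits Slc7a11, at 3 to 12 reads.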
